A study of Mus musculus with 37 samples.

Results

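The comparison described here is between the livers of sires given HFPO-DA at 0.5 mg/kg by oral gavage once daily and those of sires given the vehicle alone, 5 mice against 5 out of the 37 mice of the series. The members were chosen by their labels (F0 males at 0.5 or 0 mg/kg), not by any measured value. All 10 were wild-type (WT) male mice of the CD1 strain, an outbred stock. They were about 6 weeks old at the first dose and received 84 to 85 doses, over 70 days before mating and a mating period of 14 days. The controls received deionized water by the same route and schedule. HFPO-DA is a short-chain perfluoroalkyl ether acid used as a processing aid in making fluoropolymers. The other sires of the series, 5 at 0.1 mg/kg and 4 at 5 mg/kg, entered the same model, and 18 dams formed a second cohort. RNA was read from scraped sections of formalin-fixed, paraffin-embedded liver by TempO-Seq, in which pairs of short probes are ligated on their target transcript, amplified, sequenced and counted. Each sire is 1 library, so differences in cell numbers and in RNA per cell cannot be told apart.

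Peroxisome proliferator-activated receptor α (PPARα) is a nuclear receptor that binds fatty acids and, as a heterodimer with the retinoid X receptor (RXR), switches on genes of fatty acid handling in hepatocytes. Its classical targets in rodent liver are the CYP4A fatty acid ω-hydroxylases, the enzymes of peroxisomal and mitochondrial β-oxidation, acyl-CoA thioesterases, and proteins that take up, activate or bind fatty acids. The receptor recognises a direct repeat of a hexamer half-site with 1 base between the copies, known as DR1. The liver also makes most of the complement, coagulation and carrier proteins of plasma, and the acute phase proteins among them are driven by inflammatory cytokines.

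Sires at 0.5 mg/kg differed from their controls in 47 genes, 39 raised and 8 lowered. The raised genes were mostly enzymes of fatty acid oxidation and transport. Among genes whose mean over the 10 sires was at least 5 CPM and whose groups did not overlap, leaving aside LOC100505173, which is described with the low and uneven counts, the largest changes were those of Cyp4a14, Cyp4a10, Cd36, Ehhadh and Cyp4a31, which rose by 3.04 to 4.79 on the log2 scale. The lowered genes included Gstm2, a glutathione S-transferase, and 2 plasma proteins of the acute phase and carrier list, Trf and Apcs. Without vehicle sire 2, described below, Trf and Apcs were not called, while Gstm2 was. The 47 genes were represented by 53 probes (44 raised and 9 lowered), or 0.329% of the 16103 probes tested, with 0.273% of all probes raised and 0.0559% lowered. Calls were made by edgeR's quasi-likelihood test with a Benjamini-Hochberg adjusted p below 0.10. An unadjusted p below 0.05 was found for 763 probes, or 4.74%. Levels are given as CPM, the counts scaled to a common TMM-normalised library size, and each log2 fold change is given with its standard error.

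Total counts of the 10 libraries ranged from 2608954 to 10548222. Treated sire 2 was the shallowest, with counts on 11347 probes against 14630 to 17917 in the other 9. The table held no pair of identical libraries among the 45 pairs of these 10 sires. Ddx3y, a Y-linked gene, had 31 to 493 counts in each library. All 8 hepatocyte markers were detected, with a summed level of 23302 to 33040 CPM in vehicle sires and 20836 to 25244 CPM in treated sires. Vehicle sire 2 stood apart from the other controls in acute phase genes: Saa1, a serum amyloid A, reached 54371 CPM in it and 95.2 to 253 CPM in the other 4. Its neutrophil markers summed to 80.5 CPM, against 1.68 to 14.2 CPM in the other 4 controls and 0.237 to 10.1 CPM in the treated sires. Results that rest on this library are given with and without it.

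The promoters of Fabp1 and Cd36 are shown because they were the only ones among the called genes with a DR1-like sequence in the window searched. RefSeq promoters (GRCm38.p6, 250 bases before to 50 after the start) were at hand for 27 of the 39 raised genes and 7 of the 8 lowered genes. The half-site AGGTCA was searched as 2 copies with any base between them, on both strands, allowing at most 2 mismatches. A match was found in 2 of the 27 raised promoters (7.41%), in 0 of the 7 lowered promoters, and in 351 of the 8814 promoters of all tested genes (3.98%). With at most 1 mismatch, the numbers were 1 of 27 (3.7%) and 47 of 8814 (0.533%). The 100 bases that end with the match are given, read 5′ to 3′ on the strand of the gene, with the matched bases in capitals. Both matches lie on the opposite strand, so the repeat reads there as its reverse complement. No exon of the GENCODE annotation overlaps either stretch.
Fabp1 at chr6:71199725-71199824 (plus strand, 1 mismatch): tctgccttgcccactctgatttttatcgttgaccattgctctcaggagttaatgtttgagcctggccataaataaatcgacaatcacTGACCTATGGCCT
Cd36 at chr5:17835947-17836046 (minus strand, 2 mismatches): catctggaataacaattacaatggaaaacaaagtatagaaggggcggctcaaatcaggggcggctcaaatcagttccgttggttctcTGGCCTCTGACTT
The Fabp1 match ends 3 bases before the nearest GENCODE transcript start. That of Cd36 ends 230 bases before the nearest GENCODE start downstream and lies within 4 longer GENCODE transcripts of the gene. Counted from the RefSeq start that set the window, the first matched base is at position -67 in Fabp1 and -63 in Cd36. A match is a description of the letters and was not tested as a binding site.

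The peroxisomal β-oxidation list held the largest group of raised genes. Of 24 genes in the list, 23 were tested, and 7 were raised, 0 lowered and 16 not called, with a median log2 fold change of 0.53. Over all 11378 genes taken by their most counted probe, 0.396% were called (0.325% raised and 0.0703% lowered) and the median was -0.06. The raised members described here include Abcd3, an ABC transporter of acyl-CoA esters, the bifunctional enzyme Ehhadh and the thiolases Acaa1a and Acaa1b. The list is wider than the enzymes of the pathway itself, since Abcd3 and the epoxide hydrolase Ephx2 are counted in it.

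Ehhadh, which carries out the hydratase and dehydrogenase steps, had 419, 191, 219, 301 and 237 CPM in vehicle sires 1 to 5 and 1701, 2242, 2144, 5076 and 1462 CPM in treated sires 1 to 5. The groups did not overlap, and treated sire 4 was more than any other sire above the controls. The log2 fold change was 3.21 ± 0.30, with an adjusted p of 2.74e-07, the smallest of all probes.

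Acaa1b, a 3-ketoacyl-CoA thiolase, had 21.3, 6.96, 13.5, 12.6 and 7.76 CPM in vehicle sires and 70.8, 52.9, 38.2, 57.6 and 63.9 CPM in treated sires. Every treated sire was above every control, and the gene rose by 2.19 ± 0.29 (adjusted p = 9.3e-05). Its paralog Acaa1a rose by 1.29 ± 0.26 (adjusted p = 0.022), but these genes are near-identical copies and the division of reads between their probes is uncertain. Also raised were Abcd3 by 1.08, Eci2, an enoyl-CoA isomerase, by 0.85, and Ephx2, the soluble epoxide hydrolase, by 0.75, all with groups that did not overlap (the treated sires were wholly higher in 0.861% of all genes by that probe and wholly lower in 0.782%). Of the members not called, Hsd17b4, the second bifunctional enzyme, had a log2 fold change of 0.53 (adjusted p = 0.41) and Crat, the carnitine acetyltransferase, 2.25 (adjusted p = 0.67).

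**Figure D1:**
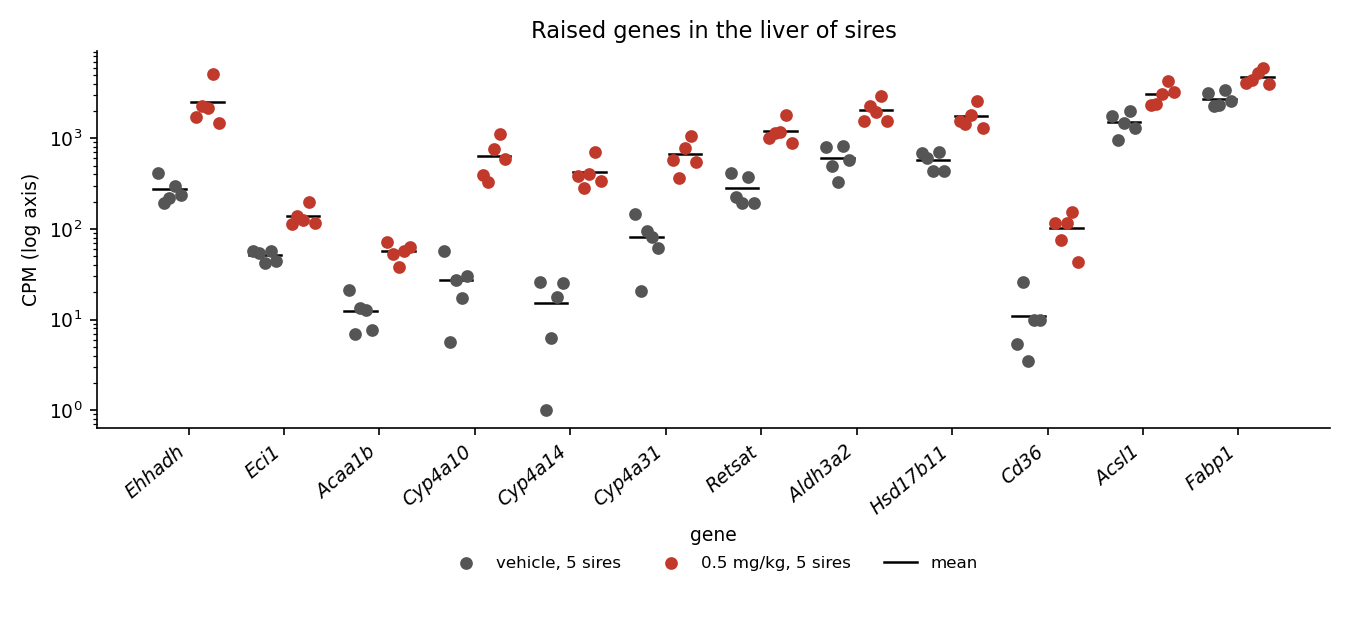
CPM (log axis) of 12 raised genes in each of 5 vehicle sires (grey) and 5 sires at 0.5 mg/kg (red), with a line at each group mean. In all 12 genes the treated sires lie above the controls without overlap. Vehicle sire 2 is the lowest control for Cyp4a10, Cyp4a14, Cyp4a31, Ehhadh, Acaa1b, Acsl1 and Fabp1, and the highest for Cd36.

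The ω-hydroxylases of the CYP4A family start the breakdown of fatty acids from the methyl end and are the most responsive PPARα targets in rodents. Of 17 CYP4 genes, 14 were tested, and 4 were raised and 0 lowered, with a median of 0.23. The 4 are Cyp4a14, Cyp4a10, Cyp4a31 and Cyp4a32, which lie next to each other within 135 kb on chromosome 4 (115486200 to 115621602, GRCm38). Cyp4a10 had 57.6, 5.60, 27.2, 17.3 and 29.97 CPM in vehicle sires and 391, 326, 766, 1111 and 589 CPM in treated sires. The lowest treated sire was above the highest control, and the log2 fold change was 4.53 ± 0.63 (adjusted p = 0.00014). A second Cyp4a10 probe gave 4.44 ± 0.62. Cyp4a14 had 26.1, 0.995, 6.19, 17.9 and 25.1 CPM in vehicle sires and 381, 285, 404, 703 and 339.9 CPM in treated sires, and rose by 4.79 ± 0.72 (adjusted p = 0.000402).

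Cyp4a31 rose from 80.8 ± 46.4 to 666 ± 268 CPM (SD, n = 5 each), by 3.04 ± 0.41 (adjusted p = 9.97e-05). Cyp4a32 rose from 12.4 ± 8.60 to 57.9 ± 30.4 CPM, by 2.22 ± 0.42 (adjusted p = 0.0112). These genes are close paralogs, and how reads of one could be counted on the probe of another is not known here. Vehicle sire 2 had the lowest control value of Cyp4a10, Cyp4a14 and Cyp4a31. Without that sire, the log2 fold changes were 4.27, 4.49 and 2.80, and all 3 stayed called. Vehicle sire 2 was also the lowest control for Ehhadh, Acaa1b, Acsl1 and Fabp1, which stayed called without it too. Cyp4a12a, a male-typical member of the family, had 237 to 678 CPM in controls and 398 to 480 CPM in treated sires, with a log2 fold change of 0.07 ± 0.20 (adjusted p = 1). Among the CYP4F genes, which act on eicosanoids and vitamins, 0 of 6 tested were called, and Cyp4f14 had a log2 fold change of -0.997 (adjusted p = 0.77).

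Mitochondrial β-oxidation and the carnitine shuttle, which carries fatty acids into the organelle, had the same tendency with fewer calls. All 21 genes were tested, 2 were raised by their most counted probe and 0 lowered, the median was 0.64, and 16 of the 21 values were above 0. Eci1, the mitochondrial enoyl-CoA isomerase, had 57.5, 54.6, 42.3, 56.4 and 44.8 CPM in vehicle sires and 113, 138, 127, 199 and 117 CPM in treated sires. The groups were well apart, and Eci1 rose by 1.44 ± 0.21 (adjusted p = 0.000297). Decr1, a dienoyl-CoA reductase needed for polyunsaturated fatty acids, rose by 0.88 ± 0.18 (adjusted p = 0.0234). Acadm, the medium-chain acyl-CoA dehydrogenase, was called on its less counted probe only, with 53.7 to 88.6 CPM against 98.0 to 149 CPM and a log2 fold change of 0.92 ± 0.20 (adjusted p = 0.0402). On the other probe it was 0.68 (adjusted p = 0.17). Cpt1a, the outer-membrane carnitine palmitoyltransferase, had a log2 fold change of 0.00 (adjusted p = 1), and Slc25a20, the carnitine carrier, 0.94 (adjusted p = 0.21).

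Of the genes that take up, activate and bind fatty acids, 21 were tested, 5 were raised and 0 lowered, with a median of 0.29. Cd36, a fatty acid translocase of the cell surface, had 5.35, 25.7, 3.48, 9.92 and 9.94 CPM in vehicle sires and 117, 76.1, 117, 155 and 43.5 CPM in treated sires. Even the lowest treated sire exceeded the highest control, and Cd36 rose by 3.22 ± 0.51 (adjusted p = 0.000733). Slc27a1, a fatty acid transport protein, was low at 2.59 to 8.84 CPM in controls, reached 11.03 to 32.3 CPM in treated sires and rose by 1.95 ± 0.39 (adjusted p = 0.0206). Acsl1, which activates long-chain fatty acids to acyl-CoA, rose by 1.03 ± 0.20 (adjusted p = 0.013) and by 1.13 ± 0.22 on a second probe.

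Fabp1, the main fatty acid binding protein of liver, whose promoter is printed above, had 3121, 2272, 2313, 3371 and 2545 CPM in vehicle sires and 4036, 4437, 5261, 5977 and 4014 CPM in treated sires. It rose by 0.80 ± 0.17 (adjusted p = 0.0234), a smaller change than that of Cd36 but also without overlap. Fabp2, the intestinal form, rose by 0.99 ± 0.23 (adjusted p = 0.061), and its treated sire 5, at 395 CPM, lay within the control range of 280 to 517 CPM. Slc27a2 and Slc27a5, the transport proteins typical of liver, had log2 fold changes of 0.07 and -0.19 (adjusted p = 1 for each).

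Acyl-CoA thioesterases, which release free fatty acids from coenzyme A, had the highest median of the lists, 1.61 over 9 genes tested of 13, with 1 raised, 0 lowered and all 9 values above 0. Acot1, the cytosolic enzyme, had 67.1, 19.6, 43.7, 16.6 and 13.8 CPM in vehicle sires and 80.5, 95.6, 138, 336 and 144 CPM in treated sires. The gap between the groups was narrow, from 67.1 to 80.5 CPM, and the gene rose by 2.30 ± 0.38 (adjusted p = 0.00161). A second Acot1 probe rose by 2.60 ± 0.36 (adjusted p = 0.00014). Acot2 and Acot3, paralogs beside it, had log2 fold changes of 2.37 (adjusted p = 0.15) and 2.89 (adjusted p = 0.22). Gm49366, a gene model 20563 bases from Acot1 on the same strand, was counted 0 to 2 times in vehicle sires and 1, 11, 15, 96 and 1 times in treated sires 1 to 5, so its call (adjusted p = 0.0608) rests on few counts. With the 10 sires fitted alone the list median was 0.95, with DESeq2 it was 0.96, and without vehicle sire 1 it was 2.20.

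Peroxins build and divide peroxisomes. Of 15 tested, 1 was raised and 0 were lowered, and the median was 0.26. The one raised, Pex11a, which drives peroxisome division, had 23.9, 31.3, 14.8, 24.4 and 29.7 CPM in vehicle sires and 45.7, 70.5, 39.4, 107 and 80.3 CPM in treated sires. It rose by 1.47 ± 0.29 (adjusted p = 0.0139). Cat, the catalase that destroys peroxisomal hydrogen peroxide, had a log2 fold change of 0.23 ± 0.17 (adjusted p = 1), and 0 of 17 genes of the NRF2 target and peroxide scavenger list were called.

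Several genes outside these lists were among the clearest changes. Retsat, which saturates retinol and is an established PPAR target, had 414, 223, 195, 377 and 195 CPM in vehicle sires and 1008, 1139, 1181, 1823 and 892 CPM in treated sires. It rose by 2.11 ± 0.23 (adjusted p = 3.19e-06). Aldh3a2, the fatty aldehyde dehydrogenase, rose from 603 ± 208 to 2046 ± 560.3 CPM (SD, n = 5 each), by 1.76 ± 0.22 (adjusted p = 4.28e-05). Hsd17b11, a lipid droplet dehydrogenase, rose by 1.59 ± 0.19 and 1.62 ± 0.24 on its 2 probes (adjusted p = 2.65e-05 and 0.000275). The remaining raised genes handle lipids or carbonyls (Hsdl2, Dhrs4, Abhd6, Nceh1), haem (Cpox) or other functions (Adam11, Paqr9, Keg1, Spon2, Cdc34, Ten1, Dab1), with log2 fold changes of 0.74 to 1.82 except for Dab1. Ten1 rose by 1.68 ± 0.39 (adjusted p = 0.0633), from 5.16 to 8.83 CPM in vehicle sires to 11.6 to 33.8 CPM in treated sires, and overlaps another gene on the opposite strand, so its reads are uncertain.

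Calls on low counts need their counts beside them. Vnn1, a pantetheinase known as a PPARα target, had 0, 11, 0, 0 and 0 counts in vehicle sires and 22, 17, 12, 126 and 25 in treated sires, and was called at an adjusted p of 0.0956. Vehicle sire 2 held all of its control counts. Dab1 had 6, 4, 0, 0 and 0 counts against 17, 0, 62, 143 and 34 (adjusted p = 0.0971). For LOC100505173, a symbol that the GENCODE annotation used here lacks, the counts were 0, 0, 0, 1 and 1 in vehicle sires and 602, 1, 382, 20 and 374 in treated sires. Single sires at 0.1 mg/kg had up to 787 counts of it and single vehicle dams up to 434, so high and near-zero libraries occurred across doses and in both cohorts, and no fold is given.

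The receptors themselves were not called. Ppara had 45.2 to 73.2 CPM in vehicle sires and 37.9 to 74.7 CPM in treated sires, with a log2 fold change of -0.02 ± 0.24 (adjusted p = 1). Rxra, the gene of its partner, had 1166 to 1522 CPM against 1007 to 1316 CPM, a difference of -0.18 ± 0.18. Ppard, which encodes the widely expressed isoform, had a log2 fold change of 0.60 ± 0.39, and Pparg, the isoform of adipocytes, was at 0 to 8.16 CPM in all 10 sires. In the list of PPARs, partners and other nuclear receptors, 0 of 18 genes were called, with a median of 0.04, 0 at an unadjusted p below 0.05 and 0 by DESeq2.

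Other branches of lipid and energy metabolism had 0 calls by edgeR. Plin2, which coats lipid droplets, had 655 to 1357 CPM in vehicle sires and 877 to 2136 CPM in treated sires, a log2 fold change of 0.79 ± 0.25 (adjusted p = 0.423), but it was called by DESeq2. There were 0 calls among 22 lipid droplet and triglyceride genes, 15 lipogenesis and desaturase genes, 24 cholesterol synthesis genes, 18 bile acid genes, 23 apolipoprotein and lipoprotein genes, 18 pyruvate and glucose production genes and 41 subunits of oxidative phosphorylation. Their medians ranged from -0.02 for apolipoproteins to 0.28 for lipid droplet genes, and between 0 (oxidative phosphorylation) and 4 (lipid droplet, and pyruvate and glucose production) genes of a list had an unadjusted p below 0.05. DESeq2 in place of edgeR, which gave an adjusted p to 6009 probes and called 109 genes, called 3 lipid droplet genes, 1 each of the cholesterol and bile acid genes, and 8 of mitochondrial β-oxidation.

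Lists of other regulators gave few calls. The 2 raised genes among 15 female-enriched genes of the growth hormone axis were Cyp4a10 and Cyp4a14, which also stand in the CYP4 list. By edgeR, 0 of 15 male-enriched genes, 13 growth hormone and IGF signalling genes, 22 CAR, PXR and AhR target enzymes, 23 genes of ER stress, 18 clock genes and 14 interferon-stimulated genes were called, with 0 to 4 genes of a list at an unadjusted p below 0.05. DESeq2 called 2 of the CAR, PXR and AhR targets and 0 of the others. Vnn1 was the 1 call among 11 genes of coenzyme A turnover, and DESeq2 gave no adjusted p for it. Markers of Kupffer, stellate, endothelial, bile duct, lymphoid, red blood, adipose and pancreatic acinar cells had 0 calls and 0 genes at an unadjusted p below 0.05. Tested were 11 of 12 Kupffer, 10 of 10 stellate, 8 of 8 endothelial and 6 of 7 acinar markers. Low counts left 3 of 6 bile duct, 4 of 9 lymphoid, 4 of 7 red blood and 2 of 7 adipose markers. The acinar markers summed to 36.2 and 50.7 CPM in vehicle sires 4 and 5 and to 46.1 CPM in treated sire 1. Their median sums were 1.86 CPM in vehicle sires and 1.66 CPM in treated sires. Whether the cell make-up differed was not tested.

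**Figure D2:**
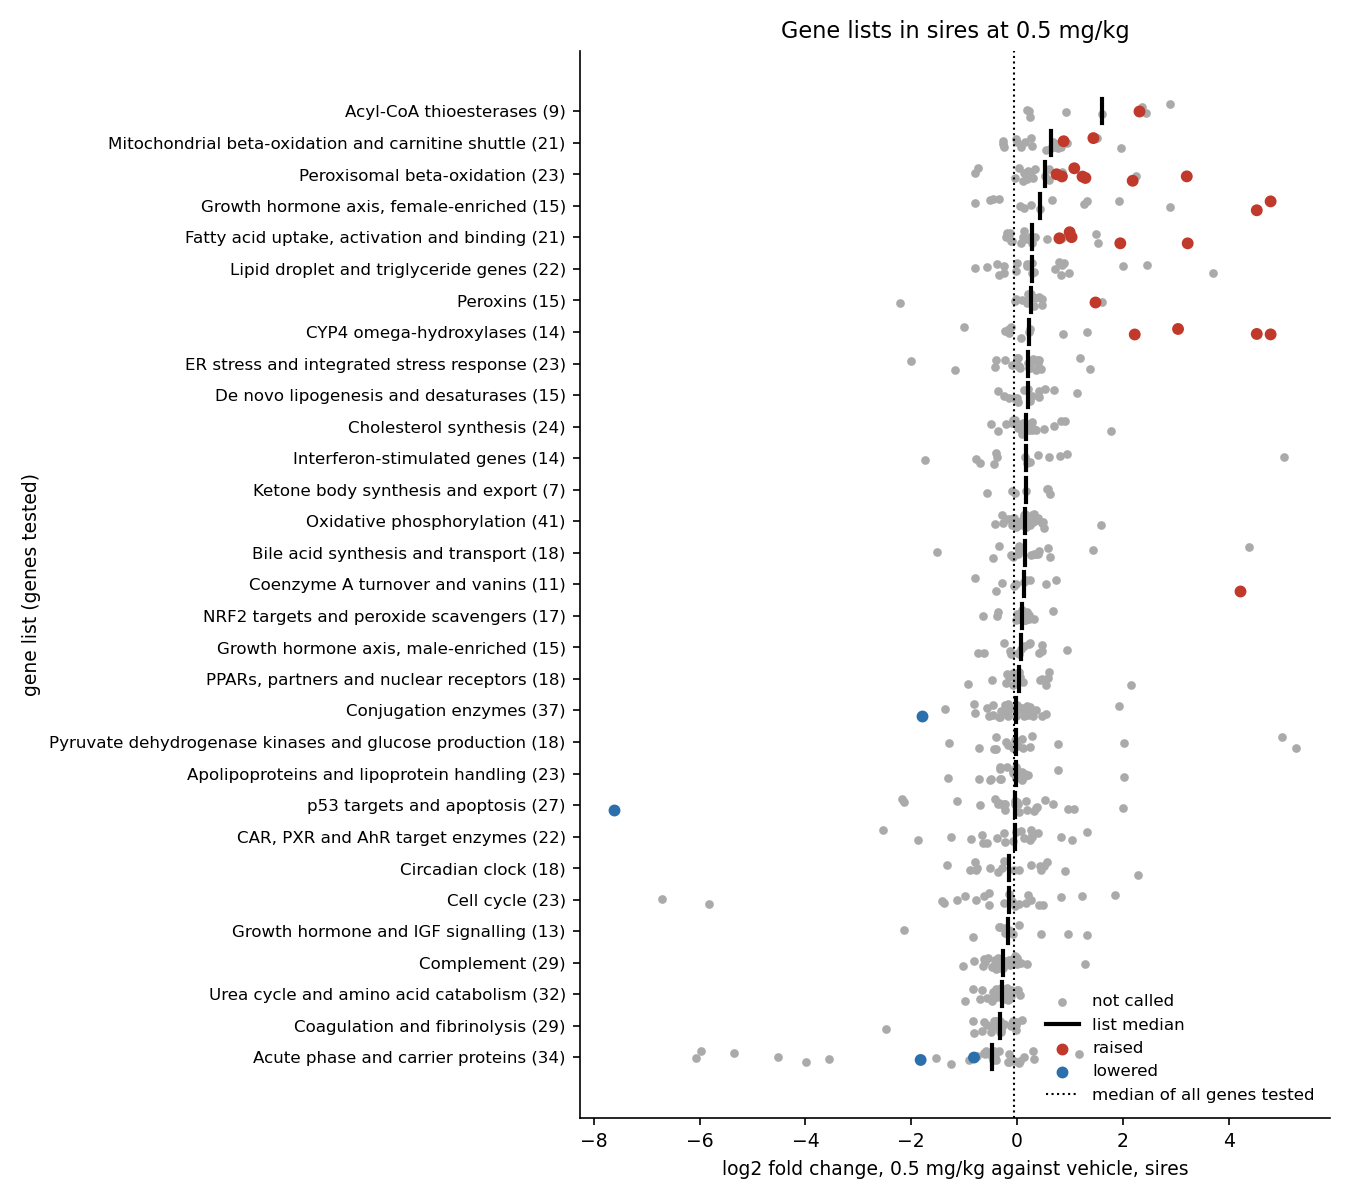
Log2 fold changes of the tested genes in each of 31 lists (1 point per gene, by its most counted probe), ordered by list median (black bar). Raised genes (red) fall mostly in the fatty acid lists in the upper part, the 4 raised CYP4 genes lie far from a list median of 0.23, and the acute phase list at the bottom has a median of -0.46.

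Among the lowered genes, Gstm2, a glutathione S-transferase of the mu class, changed most clearly. It had 144, 79.2, 102, 84.8 and 166 CPM in vehicle sires and 41.8, 41.3, 35.7, 21.2 and 26.7 CPM in treated sires. It fell by 1.79 on the log2 scale, with a standard error of 0.27 and an adjusted p of 0.000402. The other 36 conjugation enzymes tested were not called: Gstm1, Gstm3 and Gstm4 had log2 fold changes of -0.35, -0.18 and 0.09, and the list median was -0.01. Close relatives in this family may share reads.

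Hgfac, the protease that activates hepatocyte growth factor, had 209.7, 164, 84.0, 243 and 104 CPM in vehicle sires and 83.4, 52.9, 86.4, 67.4 and 38.5 CPM in treated sires, and it fell by 1.29 (adjusted p = 0.014) although 1 pair of sires overlapped. Fgfr3, a fibroblast growth factor receptor, had 117 to 162 CPM in vehicle sires and 55.3 to 107 CPM in treated sires, and it fell by 0.98 (adjusted p = 0.0309). Lect2, a secreted hepatokine of pericentral hepatocytes, had 169.7 to 316 CPM against 88.1 to 121 CPM and fell by 1.13 (adjusted p = 0.0339). Tra2b, a splicing factor, fell by 1.09 (adjusted p = 0.0761). Lect2 was the 1 call among 9 pericentral markers, which had a median of -0.57, with 8 of the 9 values below 0. Their summed level was 4827 to 9942 CPM in vehicle sires and 4136 to 6143 CPM in treated sires. Most of it was Cyp2e1, with 3455 to 8379 CPM in vehicle sires and 3377 to 5297 CPM in treated sires. Other hepatocyte markers also leaned below 0: 5 of 8 periportal values (median -0.22) and 7 of 8 general hepatocyte values (median -0.19). The part of zonation in the Lect2 result was not tested.

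Apaf1, a scaffold of the apoptosome, had 17, 28, 40, 1 and 46 counts in vehicle sires and 0 in all 5 treated sires. Against a floor of 3 counts over the treated group its mean was at least 39.1-fold lower (adjusted p = 0.0746). This bound covers counting error only and not the spread between sires, and vehicle sire 4 had 1 count. Apaf1 stayed called in only 2 of the 10 fits that left out 1 sire. Its log2 fold changes against vehicle were -0.46 in sires at 0.1 mg/kg and 0.23 in sires at 5 mg/kg. The other 26 genes of the p53 and apoptosis list were not called, and neither were the 23 cell cycle genes tested, of which 3 had an unadjusted p below 0.05. DESeq2 gave no adjusted p for Apaf1 and called 0 of the other genes of both lists.

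The plasma proteins made by hepatocytes were mostly lower in treated sires, but few passed the test. In the acute phase and carrier list, 28 of 34 values were below 0, 2 genes were lowered and 0 raised, and the median was -0.46, against -0.06 over all genes. For complement, 25 of 29 values were below 0 with a median of -0.26. In the coagulation list, 28 of 29 were below 0 with a median of -0.33, and 0 genes of either list were called by edgeR. DESeq2 called 1 complement and 2 coagulation genes, and 8 and 5 genes had an unadjusted p below 0.05. The urea cycle and amino acid list had 30 of 32 values below 0, a median of -0.28, 0 calls by either tool and 7 genes at an unadjusted p below 0.05. Of all 11378 genes, 6339 had values below 0.

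Trf, the iron carrier transferrin, had 3221, 5170, 2601, 2702 and 3013 CPM in vehicle sires and 1895, 1830, 2177, 1912 and 1690 CPM in treated sires, and it fell by 0.81 (adjusted p = 0.0414) on this probe and by 0.75 (adjusted p = 0.0341) on a second one. Apcs, serum amyloid P, had 88.2, 513, 118, 124 and 83.2 CPM in vehicle sires and 73.0, 30.8, 54.4, 76.9 and 25.97 CPM in treated sires. It fell by 1.82 (adjusted p = 0.0608), and vehicle sire 2 held the value farthest from the rest. Saa1, Orm2 and Lcn2, which encode classical acute phase proteins, had log2 fold changes of -4.52, -5.35 and -6.06 but were not called (adjusted p = 0.495, 0.152 and 0.113). Orm2 reached 2891 CPM in vehicle sire 2 and 5.12 to 12.3 CPM in the other controls, against 7.92 to 19.6 CPM in treated sires.

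Without vehicle sire 2, the median of the acute phase list was -0.17, that of complement -0.13 and that of coagulation -0.26. Apcs then had a log2 fold change of -0.98 (adjusted p = 0.666), and the Trf probes had -0.60 (adjusted p = 0.222) and -0.58 (adjusted p = 0.17), so none of these 3 was called. Of the 9 lowered probes only those of Gstm2 and Hgfac remained called, while 36 of the 44 raised probes remained. Fgfr3, Lect2 and Tra2b kept log2 fold changes of -0.93, -0.998 and -1.15 (adjusted p = 0.1005, 0.141 and 0.113), against -0.98, -1.13 and -1.09 with all sires. Apaf1 had an adjusted p of 0.15. The Kupffer cell markers summed to 491.8 CPM in vehicle sire 2 and to 112 to 301 CPM in the other controls. Without treated sire 2, 37 raised and 3 lowered probes remained. Without treated sire 4, 25 raised and 3 lowered probes remained, and 24 genes were called in all. This sire had the highest treated value of 29 of the 44 raised probes.

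**Figure D3:**
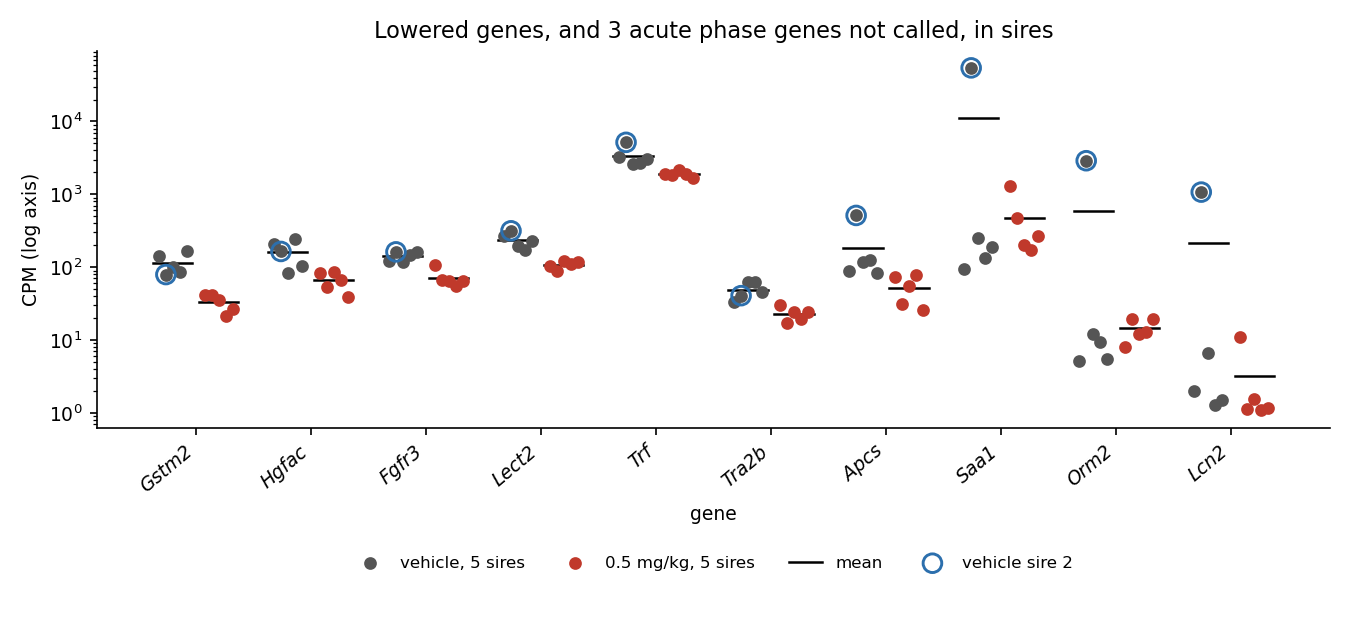
CPM (log axis) of 7 lowered genes and of Saa1, Orm2 and Lcn2, which were not called, in 5 vehicle sires (grey) and 5 sires at 0.5 mg/kg (red), with lines at group means and vehicle sire 2 circled. Of the 7, all but Hgfac do not overlap between groups, while the means of Saa1, Orm2 and Lcn2 in controls are set by the circled sire.

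Groups did not overlap in 38 of the 44 raised probes and 8 of the 9 lowered ones. Over all tested probes, the treated sires were wholly higher in 0.764% and wholly lower in 0.727%. Of the 53 called probes, 25 stayed called in each of the 14 alternative fits that gave a value for them, among them those of Ehhadh, Cyp4a10, Retsat, Cd36 and Gstm2, and none changed direction.

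The other doses given to sires were set beside these values. All 3 dose groups share the 5 vehicle sires, so their differences from vehicle are not independent. At 0.1 mg/kg, 0 probes were called by edgeR and 410 had an unadjusted p below 0.05 (DESeq2 was not run on this contrast). At 5 mg/kg 1120 probes of 948 genes were called. The 44 probes raised at 0.5 mg/kg had median log2 fold changes of 0.61, 1.53 and 2.15 from the lowest to the highest dose, and the 9 lowered probes had -0.46, -1.13 and -1.08. Ehhadh had mean levels of 273, 447, 2525 and 12305 CPM from vehicle to the highest dose. The level at 5 mg/kg was higher than at 0.5 mg/kg by 2.28 (adjusted p = 1.98e-05).

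For other genes the difference between 0.5 and 5 mg/kg did not pass the test. Cyp4a14 had means of 423 and 929.6 CPM at these doses, a difference of 1.137 (adjusted p = 0.482), and Retsat had 1209 and 1813 CPM, a difference of 0.58 (adjusted p = 0.22). Gstm2 had 33.3 and 37.4 CPM, a difference of 0.17 (adjusted p = 0.916). In the direct comparison of 5 with 0.5 mg/kg, 18 of the 44 raised probes were called higher at 5 mg/kg and 0 lower. Hsd17b11, Aldh3a2, Acot1, Slc27a1, Fabp1 and Spon2 were among the 18. Of the 9 lowered probes, 1 (Hgfac) was called lower at 5 mg/kg and 1 (Apaf1) higher. Over all 16103 probes tested, 556 were called in this comparison, in either direction.

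**Figure D4:**
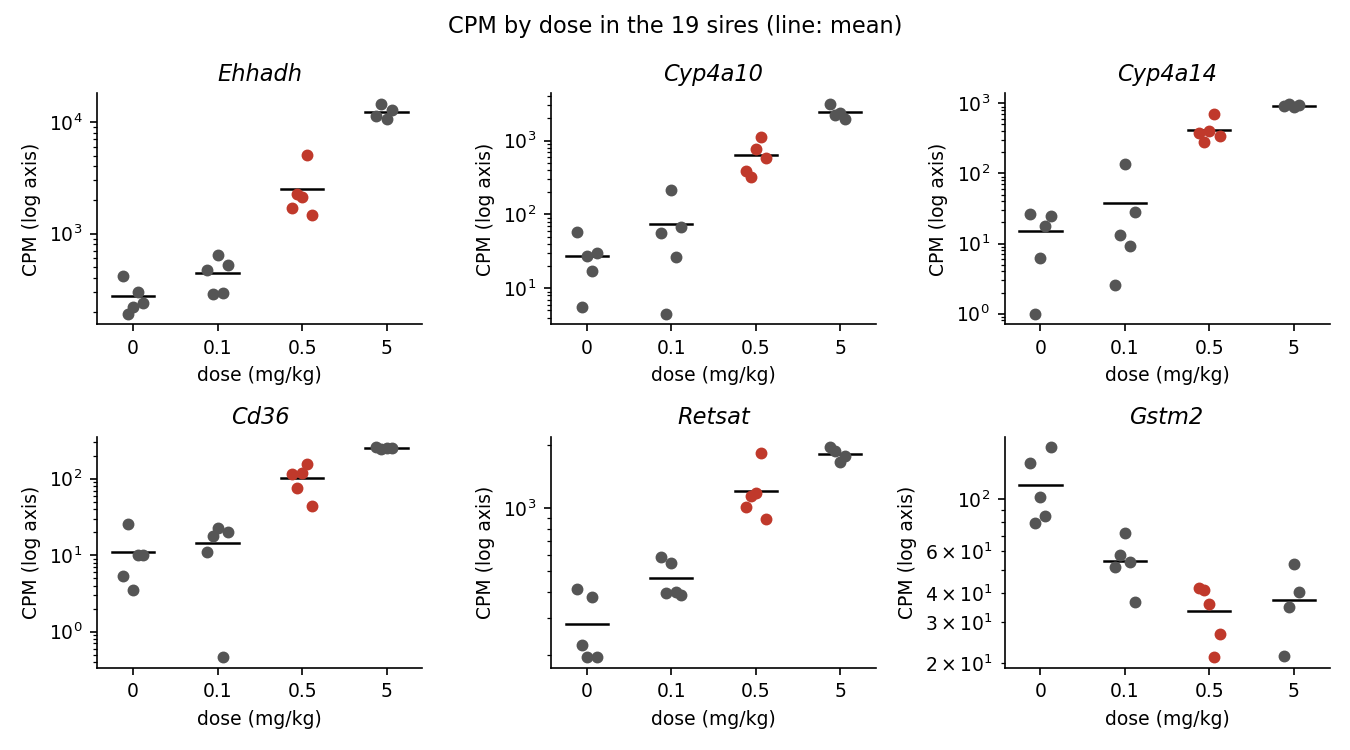
CPM (log axis) of 6 genes in the 19 sires at 0, 0.1, 0.5 (red) and 5 mg/kg, with a line at each mean. Ehhadh is higher at 5 than at 0.5 mg/kg, while Gstm2 has means of 33.3 and 37.4 CPM at these doses.

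Dams at the same dose are a second set of mice that took no part in choosing these probes. They were older at the first dose, received 53 to 65 doses into lactation and share no vehicle animal with the sires. Of the 44 probes raised in sires, 42 had a log2 fold change above 0 in dams (4 at 0.5 mg/kg, 5 vehicle), with a median of 0.80, and all 9 lowered probes were below 0, with a median of -0.39. Over all 16103 probes, 55.6% had the same sign in both cohorts. A fit on all 37 mice called 21 probes in dams (0.113% of 18570), and 14 of the 53 probes, of 12 genes, were among them with the same direction. Among these genes are Ehhadh, Cyp4a14, Retsat, Cyp4a31, Acaa1b, Cyp4a10, Fabp1, Acot1, Pex11a, Eci2 and Acaa1a.

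The difference between the cohorts was tested as an interaction, and 2 of 18570 probes were called (0.0108%), LOC100505173 and Cyp4a12a. Cyp4a12a had a log2 fold change of 0.07 in sires and 4.08 in dams, so the effect in sires was lower by 4.01 (adjusted p = 0.0686). Its levels in dams were low, with 0.419, 1.43, 2.43, 0.492 and 0.0833 CPM in vehicle dams and 1.79, 8.41, 52.6 and 2.76 CPM in dams at 0.5 mg/kg. Dam 3 at 0.5 mg/kg stood far above the other dams of these groups, and dam 1 at that dose lay within the range of the vehicle dams. At 5 mg/kg, dams had 270, 231, 210 and 79.1 CPM and sires had 395 to 500 CPM. The difference between cohorts at 5 mg/kg was not tested here. Without dam 3 at 0.5 mg/kg, an alternative chosen after seeing the data, the sire effect minus the dam effect was -2.08 (adjusted p = 0.903) and neither probe was called. Neither was called without vehicle dam 2, 4 or 5, treated sire 1 or 3, or vehicle sire 1, 3 or 5 either. Without vehicle dam 1, dam 1, 2 or 4 at 0.5 mg/kg, or treated or vehicle sire 2, 1 of them was called. Of the 53 probes called in sires, 1 (LOC100505173) was called for the difference, and 20 had an unadjusted p below 0.05, as did 952 of all 18570 probes. Cd36 rose by 3.22 in sires, had a log2 fold change of 1.07 in dams and an unadjusted interaction p of 0.0011. For Ehhadh the difference was 1.02 (unadjusted p = 0.007). Since the probes were chosen for their change in sires, larger values in sires than in dams are favoured by the choice.

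**Figure D5:**
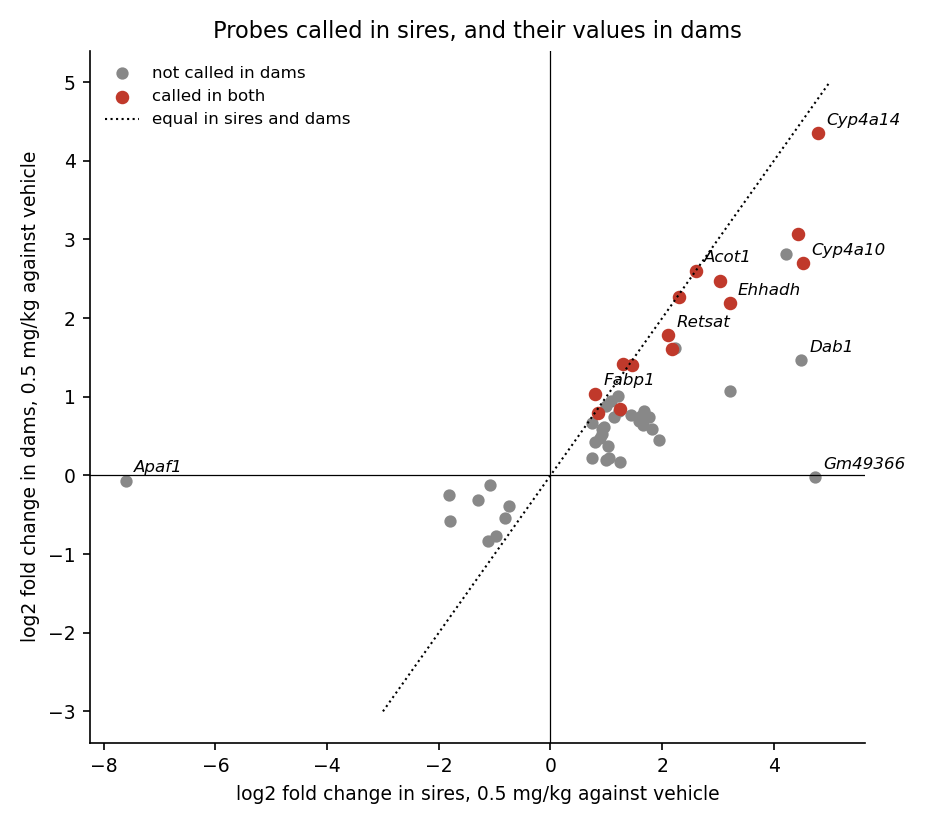
Log2 fold changes at 0.5 mg/kg of the probes called in sires, from the fit on 19 sires (x axis) and, in dams, from the fit on 37 mice (y axis), with those also called in dams in red and LOC100505173 left out. Raised probes lie mostly above 0 on both axes and below the line of equal change, both Acot1 probes lie near it, and Gm49366 and Apaf1 are near 0 in dams.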

How the data were processed

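The authors sequenced TempO-Seq libraries, used bcl2fastq 2.17.1.14 and Bowtie according to the submitters' processing notes, and deposited whole-number read counts per probe, without normalization. Libraries over 2 SD below the mean in depth or in probes detected had been removed. The genome build and probe annotation are not given in the sources used here. Rows were matched to genes by symbol, and gene positions come from GENCODE (GRCm38).

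Counts were analysed in R 4.3.3 with edgeR 4.0.16 (filterByExpr, TMM, estimateDisp, glmQLFit, glmQLFTest) on the 19 sires with a mean per dose. The fit kept 16103 of 30146 probes. Calls used a Benjamini-Hochberg adjusted p below 0.10, and a gene was called if any of its probes was. Lists took each gene by its probe with the highest total count. No list median moved when genes with a group at 0 counts were set to a floor of 3 counts. Only the cell cycle list (2 genes), the p53 and apoptosis list (1) and the pyruvate and glucose production list (1) held such genes. So few values can hardly move a median, so this does not test how the lists depend on low counts. The dams and the interaction were fitted on 37 mice. Each mouse was treated as a replicate, so p-values cover the spread between mice. The script was tested on simulated counts. Figures used Python with matplotlib 3.10.9.

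The genes named are the 10 raised and 10 lowered genes (or as many as there were) with the largest changes, groups that did not overlap and a mean of at least 5 CPM, the 10 smallest adjusted p, up to 5 called genes of each list or otherwise its 2 most abundant, PPAR and RXR genes, and called interactions. Other called genes were named after their values were seen, to account for the rest of the 47, and so were further members of the lists and the acute phase genes of vehicle sire 2. The members, lists and genes were chosen with earlier results of these data known. The choice between edgeR's older and newer quasi-likelihood fits fell on the older, the package default, after a simulation and after both counts of calls had been seen. DESeq2 1.42.0 was an alternative. Some items, including called genes, are not reported here.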

Additional observations from a re-analysis of the deposited data

Results flagged for a closer look

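The lowest and highest sires of the 172 groups of 5 formed by 86 named probes were set against a Dixon limit of 0.71. The ratio was taken on log2 of CPM plus 1, and 10 groups passed the limit, where chance gives about 1 in 20 groups. A sire can stand out in plain CPM without passing on that scale, as did treated sire 4 for Ehhadh (5076 CPM against 1462 to 2242). Among vehicle sires those that passed were sire 2 for Apcs (513 CPM against 83.2 to 124) and Vnn1 (1.37 against 0 in the other 4), sire 3 for Bhlhe40 (41.9 against 123 to 175) and Hspa5 (9579 against 4835 to 5843), and sire 5 for Pmvk (152 against 371 to 469). Among treated sires they were sire 1 for Fgfr3 (107 CPM against 55.3 to 66.0) and Ppard (21.3 against 11.7 to 13.9), sire 4 for Mup3 (3114 against 4185 to 4298), and sire 5 for Fabp2 (395 against 738 to 926) and Gpd1 (1028 against 1654 to 1975). Apcs, Vnn1, Fgfr3 and Fabp2 are called genes.

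The effect of 0.5 mg/kg differed between sires and dams for 2 probes in edgeR's interaction test. For Cyp4a12a the sire effect minus the dam effect was -4.01 (adjusted p = 0.0686). This value rested on dam 3 at 0.5 mg/kg, which had 52.6 CPM against 1.79, 8.41 and 2.76 CPM in the other dams at that dose, and without it the difference was -2.08 (adjusted p = 0.903). Dams at 5 mg/kg had 270, 231, 210 and 79.1 CPM, against 0.0833 to 2.43 CPM in vehicle dams, and the difference between cohorts at 5 mg/kg was not tested here. For LOC100505173 the fitted difference was 15.7 (adjusted p = 0.0686), a value set by libraries at or near 0 counts and not a bound.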

How the results depend on the processing

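The 47 genes called in sires became 137 without a filter on low counts (79 raised, 58 lowered), 109 with DESeq2 (75 and 34, of 6009 probes with an adjusted p) and 106 in the fit on all 37 mice (62 and 44), so that the raised share was 83.0% in the reported fit and 57.7%, 68.8% and 58.5% in these. The newer quasi-likelihood fit, an alternative chosen after seeing the data, gave 64. Other settings gave 35 to 53. Leaving out 1 sire at a time gave 24 to 49, the lowest without treated sire 4; without vehicle sire 2 it was 33. The 2 probes called for the difference between cohorts became 7 with DESeq2 and 0 to 4 when 1 sire was left out, with 0 without treated sire 1 or 3 or vehicle sire 1, 3 or 5, 1 without treated or vehicle sire 2, and 4 without vehicle sire 4. Leaving out 1 dam at a time, chosen after seeing the data, gave 0 to 2, with 0 without dam 3 at 0.5 mg/kg or vehicle dam 2, 4 or 5, and 1 without vehicle dam 1 or dam 1, 2 or 4 at 0.5 mg/kg. An unadjusted p below 0.05 was found for 952 probes in that test. Single genes were followed in 14 of the alternative fits, in which 0 values of called probes changed direction. In these fits, 144 values were no longer past the threshold and 2 came past it with DESeq2. The count of direction changes does not cover genes that were not called. Apoe, for one, had a log2 fold change of 0.0045 in the reported fit and -0.0012 in the fit on all 37 mice. No paired analysis was possible because the labels name mice by animal number and give no pairing across doses. Depth limits low genes most: a group at 0 allows up to 0.076 CPM in vehicle sires and 0.087 CPM in treated sires, for counting error only.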
